A study of Rattus norvegicus with 18 samples.

Results

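Pmp22, Mbp, S100b, Prx, Sox10 and Mag are genes of myelin and of Schwann cells, the glia of peripheral nerve. They are 6 of the 14217 genes that could be named on the array, and every probe set carrying 1 of these 6 symbols was taken, which gave 9 of 31042 probe sets. A probe set is a group of short probes whose readings are summarized as 1 signal. The samples were extraocular muscle (EOM, the muscles that move the eye), diaphragm (DIA, a muscle of breathing) and extensor digitorum longus (EDL, which extends the toes). They came from female Lewis rats with experimental autoimmune myasthenia gravis (EAMG), induced by 1 immunization with acetylcholine receptor of Torpedo californica in complete Freund's adjuvant (CFA) with extra killed mycobacteria, and from control rats given adjuvant without the receptor. The EOM samples were rectus muscles. The rats were 6 to 8 weeks old at the start and tissue was taken 6 weeks later. Each of the 6 groups of muscle and treatment had 3 arrays, 18 in all, and the RNA on an array was a pool of muscles, of 3 rats by the series description and 4 to 5 by the methods. Both EAMG and control rats had received the adjuvant, so no group was untreated, and a difference between groups is measured against the spread between pools, not between single rats.

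In peripheral nerve a Schwann cell wraps its membrane around an axon and compacts it into myelin. Mbp (myelin basic protein) lies between the cytoplasmic faces of the membrane and helps to hold them together, Pmp22 (peripheral myelin protein 22) is a membrane protein of compact myelin whose dosage causes inherited neuropathies, and Prx (periaxin) belongs to a complex with Drp2 and dystroglycan at the outer surface of the myelin sheath. Mag (myelin-associated glycoprotein) faces the axon on the innermost membrane. Sox10 is a transcription factor that Schwann cells need at all stages and that is also present in melanocytes and in some glands, and S100b is a calcium-binding protein of Schwann cells that fat cells also make. EOM is densely innervated, with small motor units, so a sample of it holds much intramuscular nerve, whereas central myelin is made by oligodendrocytes, which should not be present in muscle. In RNA from whole muscle, more cells of a type and more RNA per cell cannot be told apart.

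The promoter windows of Prx, Pmp22 and S100b follow, as the regulatory sequence next to 3 tested members that shared the order of EOM above the other muscles. Each runs for 250 bases before and 50 bases after the annotated start (RefSeq, rat build GRCr8), at chr1:91914171-91914470 on the plus strand for Prx, chr10:48294682-48294981 on the plus strand for Pmp22 and chr20:12381032-12381331 on the minus strand for S100b. Capitals mark the letters CCAAT on either strand.
Prx: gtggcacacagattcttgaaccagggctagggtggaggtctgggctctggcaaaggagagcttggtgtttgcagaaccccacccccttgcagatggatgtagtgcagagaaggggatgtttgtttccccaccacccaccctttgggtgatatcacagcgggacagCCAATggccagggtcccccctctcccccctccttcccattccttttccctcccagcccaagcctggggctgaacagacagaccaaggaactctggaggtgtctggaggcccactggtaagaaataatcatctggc
Pmp22: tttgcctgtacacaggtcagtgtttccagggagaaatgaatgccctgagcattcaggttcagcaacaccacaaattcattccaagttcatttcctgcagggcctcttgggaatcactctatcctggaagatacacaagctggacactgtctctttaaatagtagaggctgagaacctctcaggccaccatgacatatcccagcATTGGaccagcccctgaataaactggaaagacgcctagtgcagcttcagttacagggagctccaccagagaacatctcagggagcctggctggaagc
S100b: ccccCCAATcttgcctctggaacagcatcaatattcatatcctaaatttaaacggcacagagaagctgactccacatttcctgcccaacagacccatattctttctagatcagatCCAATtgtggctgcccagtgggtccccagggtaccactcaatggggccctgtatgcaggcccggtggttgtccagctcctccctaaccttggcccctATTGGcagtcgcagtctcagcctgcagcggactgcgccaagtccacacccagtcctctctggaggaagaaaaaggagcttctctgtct
The SOX letters ACAAAG and AACAAT, the EGR letters GCGGGGGCG and GCGTGGGCG and the TATA letters TATAAA had no match on either strand in these 3 windows. CCAAT had 1 match in the Prx window, 1 in the Pmp22 window and 3 in the S100b window, and 37.5% of all 33469 windows of that length held it. The Mag window held 1 match to ACAAAG and 1 of the Mbp windows held 3 SOX matches, against 27.7% of all windows with a match to either SOX sequence. Windows with an EGR match made up 3.2% of all and those with TATAAA 14.2%. These are matches of letters, with no measurement of binding.

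The signals are on the linear scale of the array software, and all differences below are on the log2 scale. A probe set was tested only if 1 or more of the 18 arrays gave it a signal of 400 or above, which kept 12238. Of the 9 member probe sets 7 were tested, and they stood for 5 of the 6 genes. Mag (1368861_a_at) never exceeded 198 and the third Mbp probe set (1383479_at) never exceeded 279, so these are given from a fit without the signal minimum. Sox10 reached 400 on a single array, EOM EAMG 3, and the dimmer tested Mbp probe set (1387341_a_at) reached it on EOM arrays only. Both were therefore tested because they were high in EOM, and their part in any count of EOM differences follows in part from that. The trimmed mean signal was 500 on every array. The ratio of 3' to 5' GAPDH signal was 2.66 on DIA EAMG 3 and at most 1.33 on the other 17 arrays, and the mean signal of the poly-A spike-in controls was 521 on EOM EAMG 2 and 750 on DIA EAMG 2, against 10096 to 24458 on the others.

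All 7 tested probe sets were higher in EOM, in EAMG and in control rats, and none of them passed the test for a change with EAMG in any muscle. In the plot of signals by array the EOM arrays lie apart from those of the other muscles in every tested panel. How many of all probe sets separate in this way was not counted, so this has no background beside it. The difference from the mean of DIA and EDL ranged from 1.36 to 2.57 in EAMG rats and from 1.43 to 2.40 in control rats.

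**Figure D1:**
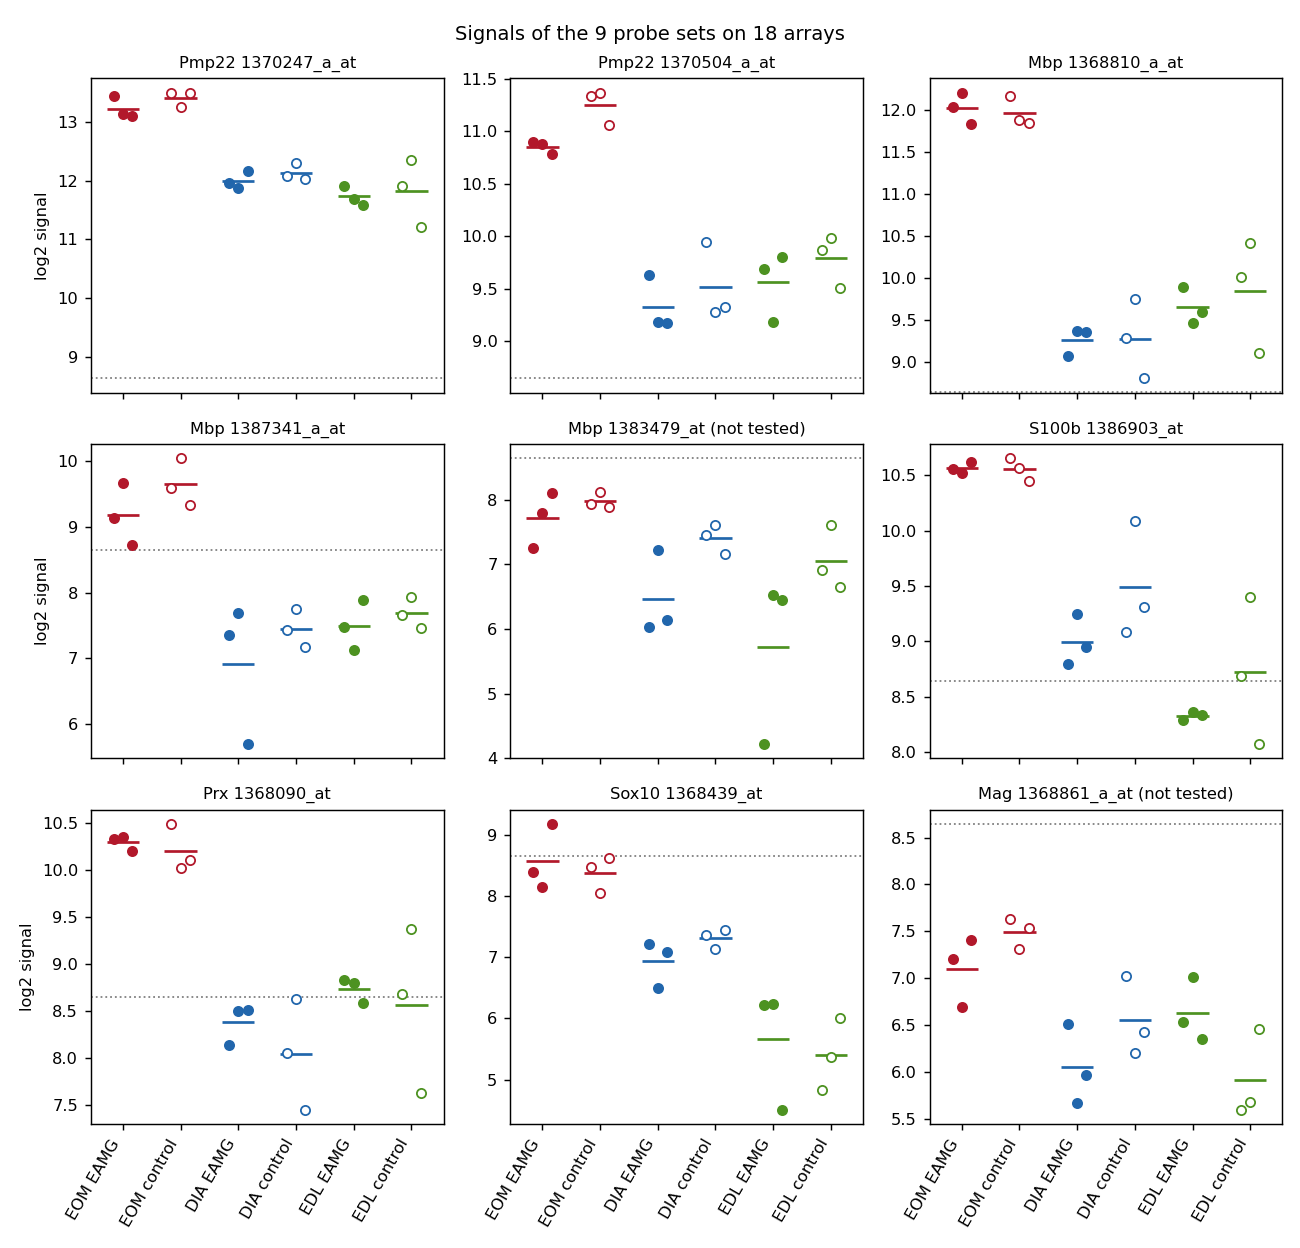
Log2 signal (vertical axis) of each of the 9 probe sets on the 18 arrays, by group, each panel with its own scale. Filled points are EAMG arrays and open points control arrays, the bar is the mean of 3 arrays, and the dotted line marks the signal minimum of 400. The 6 EOM arrays lie above all 12 arrays of DIA and EDL in each of the 7 tested probe sets.

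Mbp showed the greatest difference of the members. The brighter probe set (1368810_a_at) had signals of 4204, 4730 and 3666 in EAMG EOM and 4608, 3763 and 3688 in control EOM. In DIA it read 536, 663 and 654 in EAMG rats and 623, 858 and 447 in control rats, and in EDL 949, 703 and 775 in EAMG rats and 1032, 1371 and 552 in control rats. No EOM array fell below 3666 and no array of another muscle exceeded 1371. Control EOM was 5.29-fold higher than the mean of control DIA and EDL on the log2 scale (2.40 ± 0.24 SE, adjusted p = 2.45e-06, limma with Benjamini-Hochberg adjustment over all tested probe sets), and EAMG EOM was 5.95-fold higher than the mean of EAMG DIA and EDL (2.57 ± 0.24, adjusted p = 1.03e-06). The second tested Mbp probe set read 424 to 813 in EAMG EOM and 642 to 1049 in control EOM, against 52.1 to 236 on the EAMG arrays and 145 to 245 on the control arrays of DIA and EDL. Its difference was 1.97 ± 0.35 in EAMG rats and 2.08 ± 0.35 in control rats. The lowest of these readings, 52.1, came from DIA EAMG 3, the array with the high GAPDH ratio. Without that array the EAMG difference of this Mbp probe set (1387341_a_at) was 1.67 and still passed.

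Pmp22 had 2 probe sets with the same order of muscles. The brighter (1370247_a_at) read 11084, 8974 and 8753 in EAMG EOM and 11519, 9748 and 11468 in control EOM. It read 3959, 3760 and 4602 in EAMG DIA, 4340, 5012 and 4178 in control DIA, 3832, 3317 and 3085 in EAMG EDL and 3854, 5200 and 2383 in control EDL. The highest array outside EOM was thus below the lowest in EOM. The difference between EOM and the mean of the other muscles was 1.36 ± 0.18 in EAMG rats (adjusted p = 3.46e-05) and 1.43 ± 0.18 in control rats (adjusted p = 2.73e-05), or 2.56-fold and 2.69-fold. The other probe set (1370504_a_at) read 1766 to 1905 in EAMG EOM and 2130 to 2644 in control EOM, against 577 to 893 on the EAMG arrays and 620 to 1013 on the control arrays of DIA and EDL. Its difference was 1.41 ± 0.18 in EAMG rats and 1.60 ± 0.18 in control rats.

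Prx read 1281, 1304 and 1180 in EAMG EOM and 1434, 1036 and 1103 in control EOM. In DIA it read 282, 361 and 364 in EAMG rats and 265, 396 and 174 in control rats, and in EDL 452, 444 and 383 in EAMG rats and 409, 660 and 197 in control rats. EOM and the other muscles did not overlap, while DIA and EDL overlapped in control rats. The difference was 1.74 ± 0.29 in EAMG rats (3.33-fold, adjusted p = 0.00026) and 1.90 ± 0.29 in control rats (3.74-fold, adjusted p = 0.000146).

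S100b read 1506, 1471 and 1576 in EAMG EOM and 1611, 1513 and 1398 in control EOM. It read 443, 607 and 493 in EAMG DIA, 543, 1091 and 633 in control DIA, 312, 328 and 323 in EAMG EDL and 412, 674 and 269 in control EDL. DIA control 2, at 1091, came closest to EOM. The difference was 1.91 ± 0.24 in EAMG rats (3.75-fold, adjusted p = 1.6e-05) and 1.45 ± 0.24 in control rats (2.73-fold, adjusted p = 0.00024). Because fat cells also make S100b, the 7 matched genes of an adipocyte list were summed on each array. Their sum was 5796 to 7390 in EAMG EOM and 5824 to 7212 in control EOM, against 10336 to 21146 in EAMG DIA, 9207 to 16314 in control DIA, 4841 to 7005 in EAMG EDL and 4452 to 5872 in control EDL. Most of this sum in every group was Fabp4, and the part of fat cells in the S100b signal was not tested.

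Sox10 read 336, 283 and 576 in EAMG EOM and 355, 263 and 390 in control EOM. It read 148, 90.4 and 135 in EAMG DIA, 164, 140 and 173 in control DIA, 74.6, 75.5 and 22.8 in EAMG EDL and 28.3, 41.5 and 64 in control EDL. The muscles were ordered EOM, DIA, EDL with no overlap between neighbours, in EAMG and in control rats alike. The difference of EOM from the mean of the other muscles was 2.28 ± 0.36 in EAMG rats (adjusted p = 0.000135) and 2.02 ± 0.36 in control rats (adjusted p = 0.000477). With 100 added to each signal, which damps low values, the differences were 1.38 and 1.16.

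Mag was dim throughout. It read 147, 103 and 170 in EAMG EOM and 198, 159 and 186 in control EOM, against 51 to 129 on the EAMG arrays and 48.4 to 130 on the control arrays of DIA and EDL. In the fit without the signal minimum the control difference was 1.26 ± 0.26 (adjusted p = 0.00636, edges of the 95% interval 0.69 and 1.83) with no overlap, whereas in EAMG rats the groups overlapped and the difference was 0.76 ± 0.26 (adjusted p = 0.0723). The third Mbp probe set differed by 1.62 ± 0.45 in EAMG rats (adjusted p = 0.0253, and 0.00335 to 0.135 over the alternatives) and by 0.75 ± 0.45 in control rats (adjusted p = 0.36). That the difference passed in one treatment and not in the other does not show that it differed between them. The difference of these differences was -0.50 ± 0.37 for Mag and 0.87 ± 0.63 for this Mbp probe set, and neither passed (adjusted p = 0.979 and 0.975).

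Across the members, 7 of 7 tested probe sets were higher in EAMG EOM than in the mean of EAMG DIA and EDL, where 22% of all tested probe sets were. In control rats 7 of 7 were higher, against 18.7% of all. The median difference of the 7 was 1.91 in EAMG rats and 1.90 in control rats, beside medians of 0.02 and 0.03 over all tested probe sets. In the fit without the signal minimum 8 of all 9 were higher in EAMG rats (background 8.86%) and 8 of 9 in control rats (background 6.11%), the exceptions being Mag in EAMG rats and the third Mbp probe set in control rats. The differences of these 7 passed in both treatments under every alternative that was run, except that Sox10 was not tested where 400 had to be reached on 3 arrays, where EOM EAMG 3 was left out, or, for the control difference, where the control arrays were fitted alone. The EAMG and control arrays came from different rats, so the 2 sets of values are separate measurements of the difference between muscles. The members had been picked with this difference known from the same arrays, so the counts describe them and do not stand as separate evidence.

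**Figure D2:**
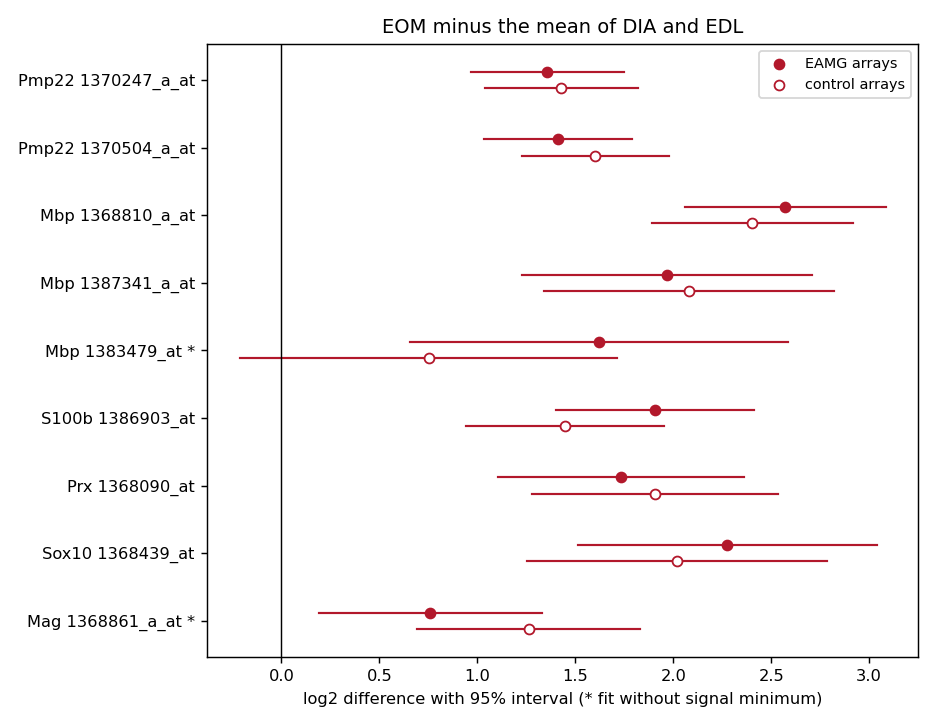
Log2 difference between EOM and the mean of DIA and EDL (horizontal axis) for each probe set, in EAMG arrays (filled) and control arrays (open), with the 95% interval of limma. Probe sets with an asterisk come from the fit without the signal minimum. Values run from 0.75 for Mbp 1383479_at in control arrays to 2.57 for Mbp 1368810_a_at in EAMG arrays.

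Muscle by muscle, 6 of 7 tested probe sets passed as higher in control EOM than in control DIA (10.6% of all) and 7 of 7 as higher in control EOM than in control EDL (23.1%). Sox10 was the exception against DIA, at 1.06 ± 0.41 (adjusted p = 0.0828), and it passed with 100 added to each signal (adjusted p = 0.0111) and without EDL EAMG 3 (adjusted p = 0.0198). S100b differed from DIA by 1.06 ± 0.27 (adjusted p = 0.0113), and this call was lost without DIA control 1 (0.86, adjusted p = 0.0612) and when the control arrays were fitted alone (adjusted p = 0.0501). Against EDL the differences ran from 1.47 for Pmp22 1370504_a_at to 2.97 for Sox10, which was 1.59 with 100 added.

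For 6 of the 7 tested probe sets control DIA lay closer to EDL than to EOM, the exception being Sox10. Sox10 alone passed between control DIA and control EDL, higher in DIA by 1.91 ± 0.41 (adjusted p = 0.00403), where 24.8% of all probe sets passed in either direction. The control EDL signals of Sox10, 28.3 to 64, were too low to give a firm size, and with 100 added this difference was 0.85. S100b was also above EDL in DIA, by 0.78 ± 0.27, and missed the threshold (adjusted p = 0.0503). It passed without EDL control 2 (1.11, adjusted p = 0.00617) and without DIA control 1 (0.98, adjusted p = 0.0326). It also passed with 400 on 3 arrays, 100 added, the replicate block and the intensity trend (adjusted p = 0.028 to 0.0454). Pmp22 1370247_a_at was above EDL in DIA by 0.31 and passed only without EDL control 2 (0.57, adjusted p = 0.0474). For Mbp 1368810_a_at and Prx the difference ran the other way, at -0.57 ± 0.28 and -0.51 ± 0.34, neither of which passed. Without EDL control 3 these became -0.94 (adjusted p = 0.0121) and -0.98 (adjusted p = 0.0229). Both stayed below 0 under every alternative run, so whether they passed depended on EDL control 3 and their direction did not.

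No member passed the test for a change between EAMG and control rats. In EOM 0 of 7 tested probe sets passed (1.5% of all, either direction), in DIA 0 of 7 (2.68%), in EDL 0 of 7 (6.59%) and in the mean of the changes in the 3 muscles 0 of 7 (20.4%). At an unadjusted p under 0.05 the counts were 0 in EOM, 0 in DIA, 0 in EDL and 1 in the mean, by limma. The tested changes lay between -0.48 and 0.20 in EOM, between -0.54 and 0.34 in DIA and between -0.39 and 0.26 in EDL. A p that missed the threshold does not show that levels were equal, so the intervals matter. For Mbp 1368810_a_at in EOM the 95% interval of the change was -0.53 to 0.66, for Prx -0.64 to 0.81, for S100b -0.57 to 0.59 and for Pmp22 1370247_a_at -0.64 to 0.26.

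**Figure D3:**
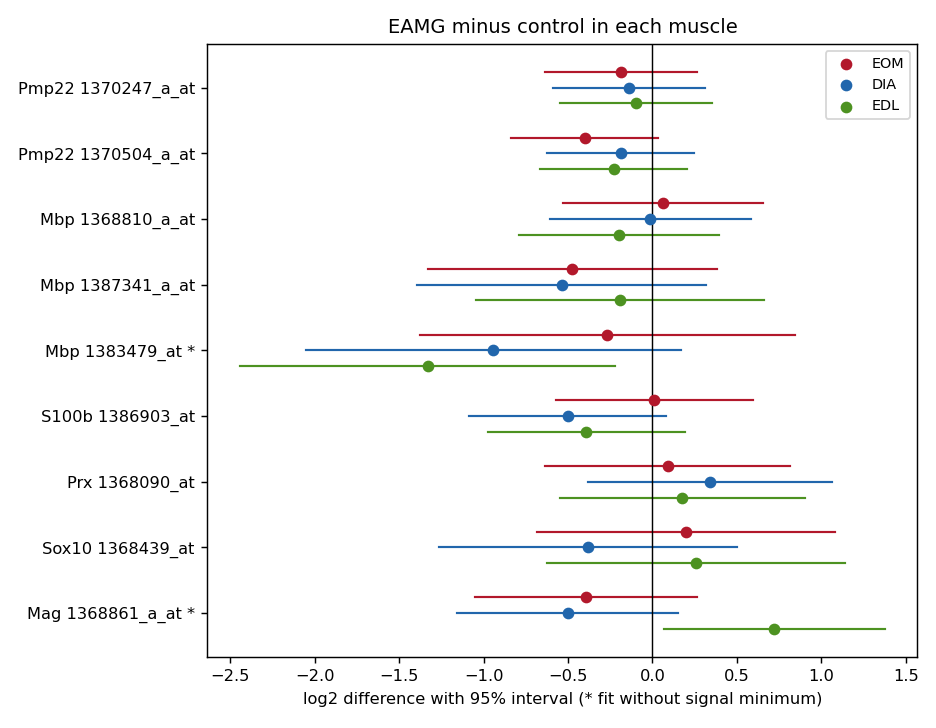
Log2 difference between EAMG and control arrays (horizontal axis) for each probe set in EOM, DIA and EDL, with the 95% interval of limma. Probe sets with an asterisk come from the fit without the signal minimum. No change passed at an adjusted p under 0.05, and the intervals of all 7 tested probe sets include 0 in every muscle, while those of Mag and Mbp 1383479_at in EDL do not.

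Of the tested probe sets the dimmer one of Pmp22 (1370504_a_at) had the lowest p for a change. It read 1905, 1885 and 1766 in EAMG EOM and 2587, 2644 and 2130 in control EOM, so that all EAMG arrays were below all control arrays. This held for 1 of the 7 tested probe sets in EOM, and the share of all probe sets was not counted. The smallest p that an exact test of 3 arrays against 3 can give is 0.1. The change was -0.40 ± 0.20 (adjusted p = 0.43). In DIA it was -0.19 ± 0.20 and in EDL -0.23 ± 0.20, and the mean of the 3 changes was -0.27 ± 0.12 (unadjusted p = 0.0355, adjusted p = 0.115). The brighter Pmp22 probe set had a mean change of -0.14 ± 0.12 (adjusted p = 0.441), with overlapping groups.

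S100b had a mean change of -0.29 ± 0.16 (adjusted p = 0.202), made up of 0.01 in EOM, -0.50 in DIA and -0.39 in EDL. It passed only without EDL control 3 (-0.40, adjusted p = 0.0481). Prx had a mean change of 0.20 ± 0.20 and Sox10 one of 0.02 ± 0.24. Of the dim probe sets, the third for Mbp (1383479_at) had a mean change of -0.85 ± 0.30 (unadjusted p = 0.0136, adjusted p = 0.13). It read 18.6, 91.8 and 87.3 in EAMG EDL and 120, 197 and 100 in control EDL, a change of -1.33 ± 0.52 (adjusted p = 0.285). Mag read 92.7, 129 and 81.9 in EAMG EDL and 48.4, 51.2 and 87.9 in control EDL, a change of 0.72 ± 0.31 (adjusted p = 0.333). The other 2 Mbp probe sets changed in EDL by -0.20 and -0.19. Without EDL EAMG 1, the array that read 18.6, Mbp 1383479_at changed by -0.58, and with 100 added to each signal by -0.54.

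The change did not pass as different between muscles for any member. Of the 7 tested probe sets 0 passed for EOM minus DIA (0.0163% of all), 0 for EOM minus EDL (0.106%), 0 for DIA minus EDL (0.0163%) and 0 for EOM minus the mean of the others (0.123%). None of the 7 reached an unadjusted p under 0.05 in any of these 4 comparisons, by limma. Mag, which was too dim to be among them, differed by -1.11 for EOM minus EDL (adjusted p = 0.669) and by -1.22 for DIA minus EDL (adjusted p = 0.876). S100b had the greatest tested value for EOM minus the others, 0.46 ± 0.34 (adjusted p = 0.766).

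Mbp and Prx varied together within groups. Each array was taken as its deviation from the mean of its own 3 arrays, with the brightest tested probe set of each gene. This leaves only differences between arrays of the same muscle and treatment. Each array held 1 pool, so differences between pools and technical differences between arrays cannot be told apart. Over 18 arrays Mbp and Prx deviated together with r = 0.957 and rho = 0.872 (permutation test within groups, two-sided, p = 0.00065 and 0.00103; adjusted over 10 pairs, p = 0.0065 and 0.0103). Without the 2 arrays farthest from the median, EDL control 2 and EDL control 3, r was 0.907 (adjusted permutation p = 0.0373). The r of Mbp with Prx was 0.842 over the 6 EOM arrays, 0.9996 over the 6 DIA arrays and 0.949 over the 6 EDL arrays. It was 0.669 over the 9 EAMG arrays and 0.995 over the 9 control arrays, a difference that was not tested.

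Pmp22 followed less closely. Its r was 0.848 with Prx (adjusted permutation p = 0.0149; rho 0.717, adjusted p = 0.0209) and 0.816 with Mbp (adjusted permutation p = 0.0255; rho 0.643, adjusted p = 0.077). Without EDL control 2 and EDL control 3 these fell to 0.561 and 0.541 (adjusted permutation p = 0.0999 and 0.187), so both rested on those arrays. S100b had r of 0.86 with Prx, 0.803 with Mbp and 0.703 with Pmp22, none of which passed (adjusted permutation p = 0.114, 0.114 and 0.158). Sox10 had r of -0.352 with Mbp, -0.285 with S100b, -0.224 with Prx and -0.0906 with Pmp22, and none passed (lowest adjusted permutation p = 0.317). Sox10 reached the signal minimum on only 1 of the 18 arrays. Its EDL signals, 22.8 to 75.5, gave deviations from -1.15 to 0.60. At such low signals these r cannot tell whether Sox10 varied apart from the other members. Deviations of 3 arrays sum to 0 in each group, so the 18 points are not fully independent.

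**Figure D4:**
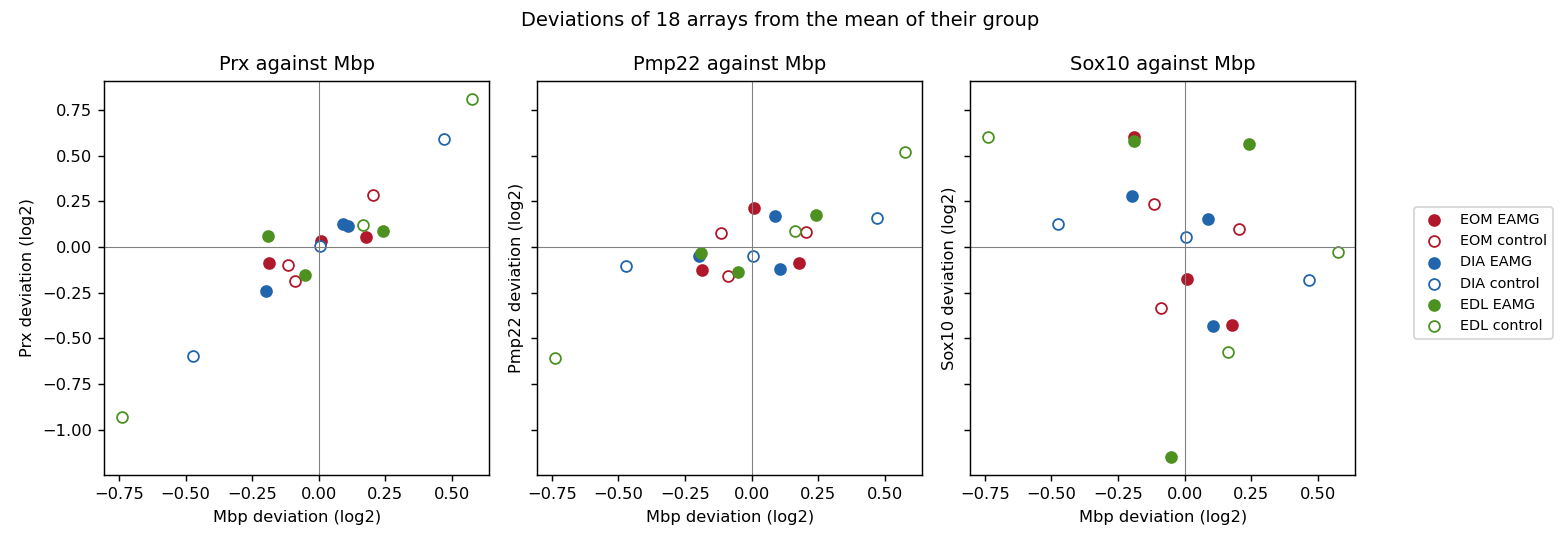
Deviation of each of the 18 arrays from the mean of its group in log2 signal, for Prx, Pmp22 and Sox10 (vertical axes) against Mbp (horizontal axis). Filled points are EAMG arrays and open points control arrays. Prx follows Mbp along a line with r = 0.957, and EDL control 2 and EDL control 3 lie at opposite ends.

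Control EDL had the widest spread of the 6 groups on the log2 scale in Prx, Mbp 1368810_a_at, S100b, Pmp22 1370247_a_at and Mag, and not in the other 4 probe sets. EDL control 2 exceeded EDL control 3 by 1.74 in Prx, 1.31 in Mbp 1368810_a_at, 1.32 in S100b and 1.13 in Pmp22 1370247_a_at, and was below it by 0.63 in Sox10 and 0.78 in Mag. DIA control 2 likewise exceeded DIA control 3 by 1.18 in Prx, 0.94 in Mbp 1368810_a_at and 0.78 in S100b. Several other lists also stood higher on EDL control 2, with a median difference from EDL control 3 of 0.96 over 8 fibroblast genes, 1.05 over 6 adipocyte genes and 1.37 over 5 macrophage genes, beside 0.02 over all tested probe sets. The medians of 4 perineurial genes (-0.17) and 2 melanocyte genes (-0.07) were below 0. On DIA control 2 against DIA control 3 the medians were -0.02, 0.79 and 0.26 for the fibroblast, adipocyte and macrophage lists. The part of this in the members' deviations was not tested.

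The genes with profiles most like those of the members over all 18 arrays were found by the root mean square difference of log2 signals centred on their own means. For Mbp they were Scd2 (0.31), Prune2 (0.36) and Itgb4 (0.37), against a standard deviation of 1.26 for Mbp itself. For Prx they were Itgb4 (0.30), Sfrp5 (0.36) and Inmt (0.37), and Mbp and Prx were each the 4th nearest to the other of the 9798 probe sets compared with Mbp and the 9799 compared with Prx. For Pmp22 they were Rgmb, Mtch1 and Sema3b (0.21 to 0.23), for S100b Ddr2, Igf1 and Fads1 (0.27 to 0.28), and for Sox10 Fndc3c1, Rcan2 and Zc2hc1a (all 0.52). The standard deviation was 1.33 for Sox10, 0.99 for Prx, 0.94 for S100b and 0.73 for Pmp22, so these differences are not directly comparable between members.

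Most other Schwann cell genes that were tested shared the difference between muscles. Of a list of 32 such genes 27 matched a probe set and 12 were tested. In EAMG rats 10 of the 12 were higher in EOM and in control rats 10, with medians of 1.67 and 1.59. Of all tested probe sets 22% were higher in EAMG rats and 18.7% in control rats. Mal, Pllp, Egr2, Fa2h, Drp2 and Lgi4 reached the signal minimum on EOM arrays only. They were tested because they were high in EOM, so their part in these counts follows in part from that. Cnp, Scn7a, Itgb4 and Plekhb1, also higher in EOM, reached it in DIA or EDL as well. The greatest in control rats were Scn7a, a sodium channel of glia (2.22 in EAMG rats and 2.07 in control rats), Drp2, the partner of Prx (2.81 and 1.97), Pllp, a myelin membrane protein (1.95 and 1.86), and Lgi4, a protein that Schwann cells secrete during myelination (2.19 and 1.72). Egr2, a transcription factor that drives myelin genes, was higher by 1.29 and 1.34. Jun was lower by 0.55 in control rats and did not pass in EAMG rats (-0.35), and Art3 was near 0, at -0.15 in EAMG rats and 0.20 in control rats. Both were bright in all 3 muscles, with group means of 9610 or more for Art3 and 2563 or more for Jun. The summed signal of the 27 matched genes overlapped between EAMG EOM (31445 to 39748) and EAMG EDL (32833 to 36809). It was 19881 to 22241 in EAMG DIA. In control rats it was 29960 to 32212 in EOM, 17628 to 18720 in DIA and 23758 to 25692 in EDL. Art3 was a large part of these sums, averaging 15963 in EAMG EOM and 24443 in EAMG EDL. Of the 15 listed genes that were too dim to test, at a highest signal of 306, 13 had their highest mean in EOM in EAMG rats and 13 in control rats. The share of all dim probe sets with their highest mean in EOM was not counted, so these counts only describe the list.

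**Figure D5:**
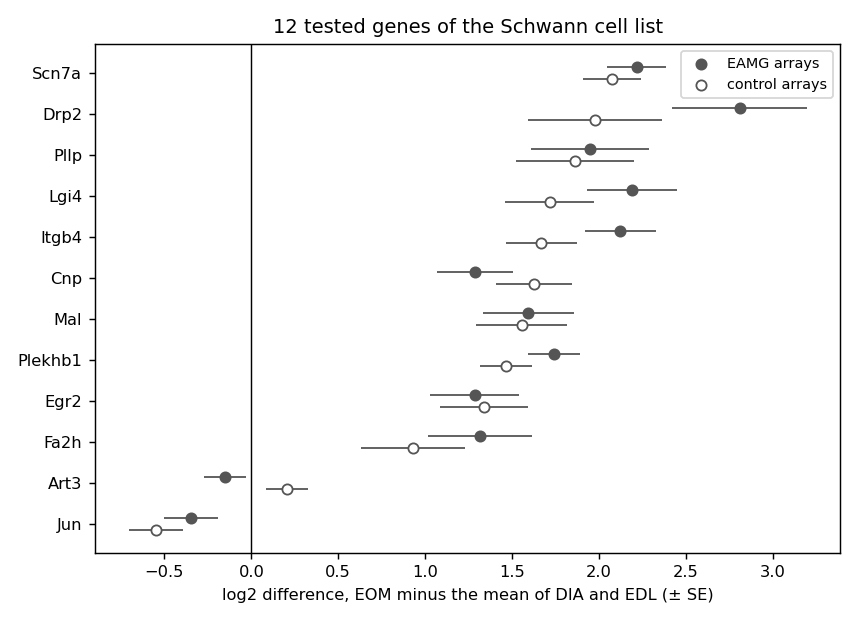
Log2 difference between EOM and the mean of DIA and EDL (horizontal axis) for the 12 tested genes of the Schwann cell list, in EAMG arrays (filled) and control arrays (open), with the SE of limma. The 10 genes from Scn7a down to Fa2h lie above 0 in both, while Art3 and Jun lie near or below 0.

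With EAMG, 0 of these 12 genes passed in EOM and 0 in DIA. In EDL 2 passed, Art3 by 0.59 (adjusted p = 0.0239) and Jun by 0.74 (adjusted p = 0.027), and the same 2 rose in the mean of the muscles, by 0.37 and 0.45. Neither of the 2 was higher in EOM, and neither call in EDL held without EDL EAMG 2, EDL EAMG 3, EDL control 1 or EDL control 2, without the signal minimum, or with EDL fitted alone, without or with the replicate number as a block (with it, adjusted p = 0.0975 for Art3 and 0.0897 for Jun). Of 15 tested genes of myelin regulation and inherited neuropathy, 4 were higher and 4 lower in EOM in EAMG rats, and 4 and 4 in control rats. Of all 12238 tested probe sets 2689 were higher and 2349 lower in EAMG rats, and 2283 and 1899 in control rats. The 4 higher in control rats were Gdap1 (1.84), Hk1 (1.75), Sox4 (1.54) and Ndrg1 (1.21), and the greatest of those lower were Wwtr1 (-1.44) and Tead1 (-0.99). In the mean EAMG change of the muscles 3 of the 15 rose and 4 fell, beside 20.4% of all tested probe sets in either direction. In EDL 2 of the 15 fell with EAMG and 0 rose, beside 6.59% of all in either direction. These were Gdap1, by 1.17 (adjusted p = 0.0491), and Nab1, which represses Egr2 activity, by 0.90 (adjusted p = 0.0363). Neither call held with EDL fitted alone and the replicate block (adjusted p = 0.133 for Gdap1 and 0.0969 for Nab1).

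Markers of other cell types were measured in the same way. Of 10 oligodendrocyte markers 9 were too dim to test. Myrf averaged 276 in EAMG DIA and 219 in control DIA and at most 11.2 in any group of EOM or EDL, Ermn averaged at most 122, in control EDL, and the other 7, among them Mog and Mobp, had group means below 100 in all 6 groups. Cldn11, the 1 tested gene, was higher in EOM than in the mean of the other muscles by 1.78 in EAMG rats and 0.85 in control rats, but in control rats it differed from DIA alone by -0.16. Of 10 axonal genes 2 were tested, both through their EOM arrays and both higher there, Nefm (neurofilament medium chain) with means of 809 in EAMG and 761 in control EOM and at most 39 in any group of DIA or EDL, and Snap25 with 288 and 344 against at most 6.05. Of the 8 too dim to test, 6 had their highest EAMG mean and 5 their highest control mean in EOM, while Prph averaged 176 in EAMG EOM and 190 in control EOM, against 200.4 in EAMG DIA and 204 in control DIA. The share of all dim probe sets was not counted for these either. Of 4 tested perineurial genes 3 were higher in EOM in both treatments, beside 22% of all tested probe sets in EAMG and 18.7% in control rats. Among them Cldn1 was higher by 1.84 in EAMG rats and 1.72 in control rats. Itgb4 is on both the perineurial and the Schwann cell list, so these counts are not separate.

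Cells other than nerve also differed between the muscles. Fibroblast genes were higher in EOM for 8 of 8 in EAMG rats and 4 of 8 in control rats, macrophage genes for 5 of 5 and 4 of 5, and endothelial genes for 1 of 5 and 1 of 5, beside 22% and 18.7% of all tested probe sets. Against control DIA alone 1 of 8 fibroblast and 0 of 5 macrophage genes passed as higher in control EOM, and against control EDL alone 7 of 8 and 5 of 5. The summed signal of 8 gland and surface epithelium genes was 2618 to 7975 in EAMG EOM and 874 to 1680 in control EOM, against 516 to 2909 in EAMG and 327 to 3789 in control samples of DIA and EDL. The melanocyte list, of interest because melanocytes also make Sox10, had 1 of 2 tested genes higher in EAMG EOM (Dct, by 3.66) and 0 of 2 in control EOM. Its summed signal was 1440 to 2410 in EAMG EOM, against 2150 to 2639 in EAMG DIA and 1558 to 1834 in EAMG EDL. In control rats it was 1114 to 1241 in EOM, 1887 to 2100 in DIA and 1318 to 1418 in EDL. Most of this sum in every group was Mitf, which is not particular to melanocytes. Dct averaged 554 in EAMG EOM and 79.2 in control EOM, against at most 87.6 in EAMG and 69.4 in control samples of the other muscles. Sox10 read highest on EOM EAMG 3, at 576. That array also gave the top EAMG EOM sums of the melanocyte (2410) and gland and epithelium (7975) lists. The part of these cell types in the members' levels was not tested.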

How the data were processed

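The authors hybridized pooled muscle RNA to rat expression arrays and deposited signal intensity values from Affymetrix GCOS 2.0, which compares perfect match and mismatch probes and had scaled every array to a trimmed mean of 500. The intensity values are linear, with 31042 probe sets on 18 arrays. They were not rescaled. Probe sets were named from the platform annotation, which gave 1 symbol to 20826, several to 436 and none to 9780, and none was named from a probe set with several symbols.

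Log2 signals of probe sets at or above 400 on at least 1 array were fitted with group means for 6 groups in limma 3.58.1 (R 4.3.3), with Benjamini-Hochberg adjustment over 12238 probe sets and a threshold of 0.05. The 2 dim member probe sets came from the same fit without the minimum. For a gene on a list the brightest probe set was used, and the genes most alike were the 3 named ones with the smallest root mean square difference. Deviation correlations used 100000 shuffles within groups. Precision is limited by how few arrays there were, and the labels do not say which rats or experiment a replicate number marks. Members and lists were chosen with earlier results of these data known. The fit was tested on simulated data, where 88 of 100 probe sets changed by 1 and 97 of 100 changed by 2 on the log2 scale were called. These shares hold for the simulated spread and do not give the power for the members. Sox10 differed between control EOM and control DIA by 1.06 ± 0.41 and did not pass (adjusted p = 0.0828).

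The alternatives were no signal minimum, 400 on 3 arrays, quantile normalization, 100 added to each signal, a fit of only the groups compared, a replicate block (also for EDL alone, where same-numbered EAMG and control arrays deviated together), an intensity trend, omission of EOM EAMG 2 and DIA EAMG 2, and omission of each array in turn.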

Additional observations from a re-analysis of the deposited data

How the results depend on the processing

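Of 2919 values of single member probe sets under an alternative, 2864 kept direction and side of the threshold or moved less than the spread. Of the rest 8 lost a call, 16 gained one and 31 moved. Of those that passed in either fit 0 reversed. Among values that passed in neither fit, counted above as kept or moved, 88 changed sign. The count of members passing between control DIA and control EDL, 1 as reported, was 2 with 100 added, 2 with the replicate block, 2 with the intensity trend and 0 when those groups were fitted alone. With single arrays left out it ran from 0 to 3, being 0 without EOM EAMG 3, where Sox10 was not tested, 2 without DIA control 1, and 3 without EDL control 2 or EDL control 3. The count for the mean EAMG change, 0 as reported, ran from 0 to 1 with single arrays left out, the 1 being S100b without EDL control 3. The replicate block let S100b pass between DIA and EDL (adjusted p = 0.028) and changed no other count of members. Same-numbered arrays of different groups gave correlations of deviations from -0.20 to 0.47 over 45 pairs, 20 of them over 0.1, and in 1 of 15 pairs of groups, EAMG and control EDL, all 3 were over 0.1 (0.15 to 0.34). For that comparison a fit of the EDL arrays alone with the replicate block, chosen after seeing the data, called 0 members, as without the block, and 8 of all probe sets, against 7 without the block and 806 in the fit of all groups. In the other pairs of groups at least 1 value was not over 0.1, which does not show that those arrays were unpaired. Same-numbered arrays gave 0.05, 0.37 and 0.39 for control DIA with control EDL. They gave 0.09, 0.47 and 0.24 for EAMG EOM with EAMG DIA. The correlation settings that leave out arrays were also chosen after seeing the data. Mag, Sox10 and the dimmer Mbp probe sets lie near or under the signal minimum outside EOM, which limits their folds.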

Other observations

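The probe sets closest to the members in their deviations from group means were looked up after the correlations had been seen. By root mean square difference over 18 arrays the nearest to Mbp was Prx (0.12), followed by Agrn (0.15) and Cyyr1 (0.16). The nearest to Prx was Mbp (0.12), followed by Stard13 and Rnf215 (0.18 each). S100b lay nearest to Stard13 (0.12) and Boc (0.15), and Pmp22 nearest to Gsn (0.09), Gpc6 (0.10) and Fxr1 (0.11). Scn7a, the glial sodium channel, was the 5th nearest to Pmp22 (0.11).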
